A study of Mus musculus with 12 samples.

Results

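The genes described here are 9 transcription factors that act at the switch from neural progenitor to neuron: the proneural factors Neurog1, Neurog2, Neurod1 and Neurod4, the zinc-finger factor Insm1, and the Hes factors Hes1, Hes3, Hes5 and Hes6. They were taken by gene symbol from the table of 57010 genes, and each of the 9 symbols matched 1 row. All but Insm1 are basic helix-loop-helix (bHLH) proteins. Insm1 stands with them as a factor of newly committed neuronal precursors.

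The study asked what the loss of FAF2, a protein of the endoplasmic reticulum that takes part in the removal of misfolded proteins, does to neural progenitor cells and to their differentiation. RNA was sequenced from 12 libraries of NE-4C cells, a progenitor line derived from the early embryonic brain of mice that lack p53. There were 4 groups of 3 libraries each, collected from independent passages: wildtype cells not induced (WT NO), wildtype cells induced with retinoic acid (WT RA), Faf2 knockout cells not induced (KO NO) and Faf2 knockout cells induced with retinoic acid (KO RA). Induction was 1 µM all-trans retinoic acid for 24 h, and RA libraries were collected on day 3 after it began. When the NO cells were collected relative to the RA cultures is not stated, so the effect of retinoic acid and that of any difference in days of culture cannot be told apart. The KO cells were 1 clonal line in which exon 4 of Faf2 had been deleted with CRISPR/Cas9, so the effect of the deletion and that of the clone cannot be told apart either.

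In the embryonic nervous system, Notch signalling holds progenitors back from differentiating. Ligand binding releases the Notch intracellular domain, which joins the DNA-binding protein RBPJ and turns on Hes1 and Hes5, and the Hes proteins then repress proneural genes. Where proneural factors escape this repression they pair with E proteins, bind E-boxes and turn on Notch ligands, neuronal bHLH factors such as Neurod1 and Neurod4, and genes of cell cycle exit and neuronal structure, while Hes6 opposes Hes1.

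Motifs of the factors in this circuit were searched just upstream of the 9 genes. The 250 bases before the start site of 4 members are shown. The Notch targets Hes1 and Hes5 were taken because each holds 2 matches to the RBPJ letters, and Neurog2 and Neurod4 because their levels moved most with induction. The windows were cut from GRCm39 with start sites of GENCODE vM39 and are written 5′ to 3′ on the strand of the gene. Capitals mark matches on either strand to 5 motifs: TGGGAA (bound by RBPJ), CACNAG (the N-box of Hes repressors), CACGCG (the class C site of Hes repressors), CAGATG or CAGCTG (E-boxes of proneural factors) and AGGTCA (the half-site of retinoid receptors).
Hes1, plus strand, chr16:29883877-29884126: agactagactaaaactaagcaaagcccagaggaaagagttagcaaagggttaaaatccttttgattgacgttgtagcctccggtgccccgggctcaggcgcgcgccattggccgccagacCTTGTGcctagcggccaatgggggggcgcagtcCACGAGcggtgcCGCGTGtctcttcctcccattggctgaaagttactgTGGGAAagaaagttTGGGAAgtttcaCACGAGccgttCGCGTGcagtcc
Hes5, plus strand, chr4:155045123-155045372: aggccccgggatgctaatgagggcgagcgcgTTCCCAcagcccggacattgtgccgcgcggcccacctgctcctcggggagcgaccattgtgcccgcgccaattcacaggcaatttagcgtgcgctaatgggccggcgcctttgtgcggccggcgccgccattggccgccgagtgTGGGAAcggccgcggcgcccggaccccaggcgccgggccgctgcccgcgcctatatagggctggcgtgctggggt
Neurog2, plus strand, chr3:127426198-127426447: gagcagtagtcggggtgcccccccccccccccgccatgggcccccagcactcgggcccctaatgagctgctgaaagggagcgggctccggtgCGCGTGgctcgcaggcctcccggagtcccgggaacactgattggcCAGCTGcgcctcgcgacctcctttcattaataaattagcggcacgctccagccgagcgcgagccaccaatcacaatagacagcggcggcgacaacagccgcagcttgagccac
Neurod4, minus strand, chr10:130116133-130116382: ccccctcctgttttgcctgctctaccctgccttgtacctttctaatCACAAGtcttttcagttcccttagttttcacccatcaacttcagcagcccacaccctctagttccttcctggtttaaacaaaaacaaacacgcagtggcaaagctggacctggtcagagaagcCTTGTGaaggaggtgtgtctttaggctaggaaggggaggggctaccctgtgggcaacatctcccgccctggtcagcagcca

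Positions below give the first base of a match, counted upstream from the start site. Hes1 held 2 RBPJ matches at -49 and -35, 3 N-box matches at -130, -97 and -23, and 2 class C matches at -85 and -12. Hes5 held 2 RBPJ matches, at -219 and -75. Of 21664 windows of this length before protein-coding genes, 22.8% held TGGGAA at least once, 36.4% held CACNAG and 8.5% held CACGCG. Windows with 2 matches were not counted. Neurog2 had 1 class C match at -158 and 1 E-box at -113, and Neurod4 had 2 N-box matches at -204 and -81. E-boxes were present in 23.1% of all windows. AGGTCA, present in 13.1% of all windows, was found before Neurog1, Neurod1, Hes3 and Hes6, which made it the 1 motif of the 5 found before Neurog1 and Hes3, and none of the 5 was found before Insm1. A match is only a match of letters, and no binding was measured here.

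All 9 genes are protein-coding. In GRCm39, Hes1 lies on chromosome 16 (29882134 to 29886643), Hes5 on chromosome 4 (155045373 to 155046828), Hes3 on the same chromosome (152370427 to 152376136) and Hes6 on chromosome 1 (91339204 to 91342103). Neurog1 is on chromosome 13 (56398291 to 56399976), Neurog2 on chromosome 3 (127426448 to 127429280), Neurod4 on chromosome 10 (130104021 to 130116132), and both Neurod1 (79282865 to 79287294) and Insm1 (146063841 to 146066940) on chromosome 2. Neurog1 and Insm1 have 1 exon each. The printed Hes1 window lies upstream of its main start site and inside an intron of a longer annotated transcript.

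Levels are given as CPM, the deposited value relative to the total of its library with edgeR's TMM factors. The authors had already scaled the values for transcript length, so levels can be compared between genes. Library totals ran from 17370069 to 30738717. Faf2 itself, the targeted gene, was at 50.0, 38.8 and 36.0 CPM in WT NO and 21.0, 21.7 and 25.4 CPM in KO NO, but in KO RA its 3 values were 36.1, 34.4 and 18.8 CPM against 35.1, 37.9 and 49.1 CPM in WT RA, so its level separated the genotypes only without induction. KO RA replicate 3 stood apart from the other 11 libraries: 62.5% of its total came from 100 genes and 23.5% from mitochondrial genes, and 87.2 to 87.3% of genes differed beyond counting noise from the other KO RA libraries, against 40.3 to 68.7% in the other pairs of replicates. Its TMM factor was 0.394, against 0.872 to 1.28 in the other libraries, so every level given for it depends on this scaling. The edgeR comparisons below are therefore given with and without KO RA replicate 3. The neural progenitor markers were all present, with a summed level of 538 to 588 CPM in WT NO, 426 to 482 CPM in KO NO, 606 to 795 CPM in WT RA and 884 to 1017 CPM in KO RA, without overlap between the groups. With RA the mean of Vim rose from 204 to 331 CPM in WT and from 130 to 542 CPM in KO, while Otx2 fell from 149 to 123 CPM and from 152 to 68.6 CPM. Sox3 also had a lower mean with RA in both genotypes, and Nes and Msi1 in WT. Between genotypes, Pax6 went against the sum, at means of 7.39 CPM in WT NO, 13.8 CPM in WT RA, 1.29 CPM in KO NO and 2.99 CPM in KO RA. Otx2 was lower in KO RA than in WT RA, as were Sox2 and Sox3, these only when KO RA replicate 3 was counted. Nes, Sox1, Cdh2, Msi1, Fabp7 and Vim had higher means in KO RA than in WT RA, and Vim held the largest part of the KO RA sum. Most of 8 markers of pluripotent cells were present too, led by Pou5f1, Tdgf1 and Utf1, with a sum of 1934 to 3274 CPM in WT NO, 2243 to 2672 CPM in KO NO, 2827 to 4095 CPM in WT RA and 1580 to 2428 CPM in KO RA. The sum of 10 neuron markers was 77.0 to 121 CPM in the NO libraries, 159 to 180 CPM in WT RA and 180 to 220 CPM in KO RA. Stmn2 led this sum in every group. Rbfox3 went the other way, with means from 2.36 to 0.351 CPM in WT and from 1.63 to 0.451 CPM in KO. Snap25 also had a lower mean with RA in both genotypes, and Elavl3 and Syt1 in WT. The sum of 10 mesenchymal markers was 55.2 to 102 CPM in the NO libraries, 142 to 314 CPM in WT RA and 229 to 1489 CPM in KO RA. The part of these cell types in the results on retinoic acid and on genotype was not tested.

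The 9 factors fell into 2 tiers. Hes1, Hes6 and Insm1 were present at more than 1 CPM in each of the 12 libraries, and the other 6 stayed under 1.7 CPM in all of them. In WT NO the order was Hes1 at 23.3 ± 0.86 CPM (SD, n = 3), Hes6 at 11.03 ± 0.77 CPM and Insm1 at 3.97 ± 1.42 CPM, and the ranges of these 3 did not overlap. Below them Hes3, Hes5, Neurog1, Neurod1, Neurog2 and Neurod4 followed at means of 0.52 to 0.0044 CPM, and each neighbour in that order overlapped the next. KO NO had the same 3 leaders in the same order, without overlap, at 23.7 ± 3.2, 6.94 ± 0.59 and 1.81 ± 0.59 CPM. In KO RA Insm1 had the higher mean of the pair below Hes1, with Insm1 at 14.4 ± 4.5 CPM and Hes6 at 10.3 ± 0.89 CPM, but Hes1, Insm1 and Hes6 overlapped there.

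**Figure D1:**
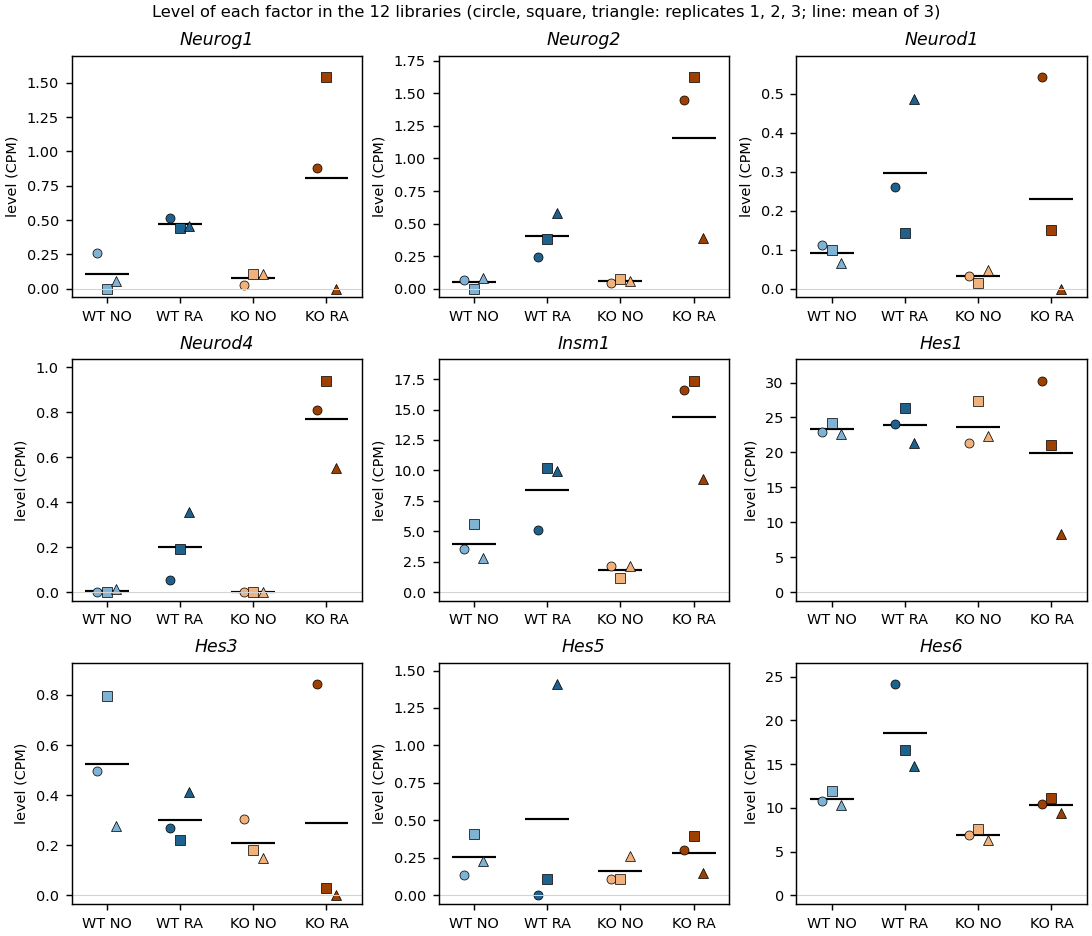
The panels plot the level of each of the 9 factors (vertical axis, CPM, with its own scale in each panel) in the 4 groups (horizontal axis), 1 point per library with its replicate number as shape and a line at the mean of 3. Hes1 stays near 20 to 30 CPM outside KO RA replicate 3, Hes6 is lower in KO than in WT with or without RA, and Insm1, Neurog2 and Neurod4 are highest in KO RA.

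The low tier rests on few molecules. With the length scaling undone, Neurog2 corresponded to about 16.9, 25.3 and 3.09 sequenced fragments in the KO RA libraries, Neurod4 to 12.4, 19.3 and 5.78, and Hes5 to at most 9.88 in any library, while Hes1 rested on 87.1 to 668 and Insm1 on 25.3 to 327. A value of 0 for a low gene therefore means not detected at this depth.

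Group differences were tested with edgeR's quasi-likelihood test over the 16502 genes that passed a filter on low values, with Benjamini-Hochberg adjustment, and a gene was called at an adjusted p under 0.05. Of the 9 factors 7 passed the filter, and Neurod1 and Neurod4 did not. Neurog1 and Neurog2 passed only through RA libraries, which favours calls of them as higher with RA. Between KO RA and KO NO, 2 of the 7 (Insm1 and Neurog2) were called higher and 0 lower, against 3.89% of all tested genes higher and 1.59% lower. Before adjustment that threshold took in 4 of the 7 (with Neurog1 and Hes6), all higher, and 15.8% of all genes upwards with 9.42% downwards. In WT RA against WT NO, 0 of 7 were called in either direction, where 0.321% of all genes were called higher and 0.0848% lower, and 3 (Neurog2, Insm1 and Hes6) were higher at an unadjusted p under 0.05, where 6.76% of all genes were higher and 5.79% lower. KO NO against WT NO likewise had 0 of 7 called, where 0.788% of all genes were called higher and 0.351% lower, and before adjustment 2 (Insm1 and Hes6) were lower at that threshold, where 6.37% of all genes were lower and 5.81% higher. KO RA against WT RA had 0 of 7 called, where 0.885% of all genes were called higher and 0.358% lower, with Hes6 alone lower before adjustment, where 6.67% of all genes were lower and 10.9% higher.

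Other tools called more, of the members as of all genes. DESeq2 on the same libraries called Insm1, Neurog2 and Hes6 higher in KO RA against KO NO (10.5% of all genes) and Hes6 higher in WT RA against WT NO (3.27%), lower in KO NO against WT NO (3.19%) and lower in KO RA against WT RA (3.12%). limma-voom with library weights called 4 members higher in KO RA against KO NO (15.1% of all genes), 2 higher in WT RA against WT NO and 2 lower in KO NO against WT NO (10.8% in each), and 2 higher (9.79%) with 1 lower (8.31%) in KO RA against WT RA. Without KO RA replicate 3 all 9 factors passed the edgeR filter, but Neurod4 only through its level in KO RA, so it is left out here. Insm1, Neurog1 and Neurog2 were then called higher in KO RA against KO NO (8.48% of 17327 genes). In the same fit 1 member was higher in WT RA against WT NO (5.65%), 1 lower in KO NO against WT NO (4.35%) and 1 lower in KO RA against WT RA (5.44%). The median log2 difference of all tested genes was 0.11 in KO RA against KO NO on 12 libraries, and 0.19 with DESeq2 size factors, while it lay at -0.02 without KO RA replicate 3.

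**Figure D2:**
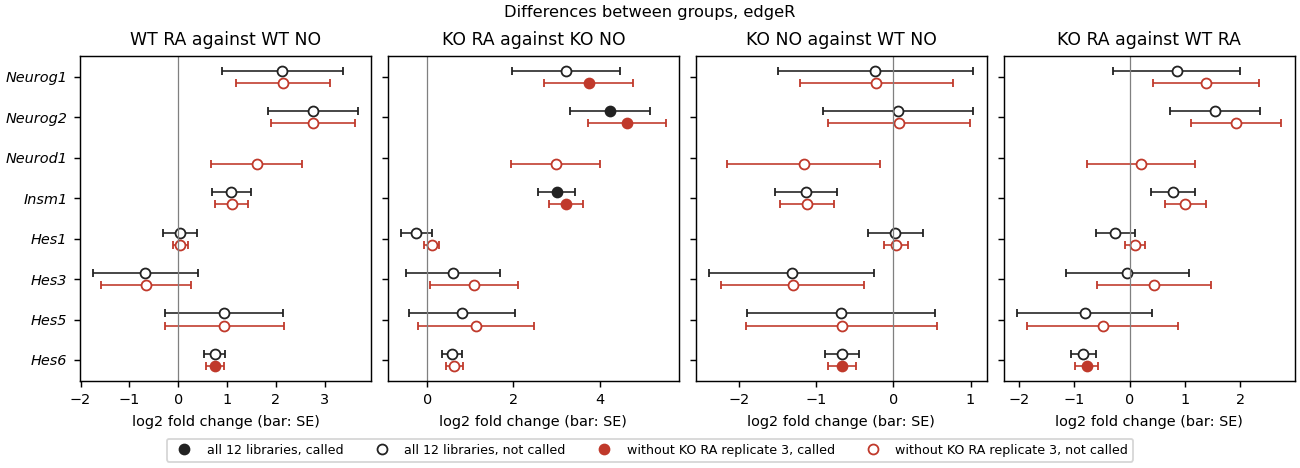
The 4 panels plot the log2 fold change of 8 factors in each comparison (points, with bars of 1 SE), in black over all 12 libraries and in red without KO RA replicate 3. Filled points passed an adjusted p of 0.05. Insm1 and Neurog2 lie far to the right in KO RA against KO NO in both fits, Hes1 lies near 0 in all 4, and Hes6 has short bars away from 0. Neurod1 has no black point, since it did not pass the filter on 12 libraries, and Neurod4 is left out, since its KO NO level was 0.

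Neurog2, which starts the neuronal programme in many progenitors of the forebrain and spinal cord, was close to absent without induction. Its level was 0.0703, 0 and 0.0816 CPM in WT NO and 0.0401, 0.0778 and 0.0594 CPM in KO NO. With RA it was 0.244, 0.384 and 0.581 CPM in the WT libraries and 1.45, 1.62 and 0.39 CPM in the KO libraries. Every RA library was above every NO library, and the lowest KO RA library was replicate 3, within the WT RA range. KO RA exceeded KO NO by 4.24 on the log2 scale (SE 0.92, edgeR adjusted p = 0.0247), and by 4.62 (SE 0.90, edgeR adjusted p = 0.00759) without KO RA replicate 3. Neurog2 passed the filter only through RA libraries, so these tests lean on the filter. With no filter on 12 libraries the difference was 4.20 (SE 1.01, edgeR adjusted p = 0.0454). The call depended on the libraries used: leaving out KO RA replicate 1, KO RA replicate 2 or any 1 of the KO NO libraries gave adjusted p of 0.0535 to 0.136 in edgeR with a fold change of 3.92 to 4.62. The WT response of 2.76 (SE 0.92) was not called (edgeR adjusted p = 0.239), nor was it without KO RA replicate 3 (edgeR adjusted p = 0.0652). In bulk RNA, a change in the share of cells that express a factor and a change in its RNA per cell cannot be told apart.

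Neurog1, the paralog of Neurog2 that acts in sensory and other neuronal lineages, had a similar order of groups. It stood at 0.256, 0 and 0.0556 CPM in WT NO, 0.516, 0.442 and 0.453 CPM in WT RA, 0.0273, 0.106 and 0.108 CPM in KO NO and 0.881, 1.54 and 0 CPM in KO RA. The 3 WT RA libraries were above all WT NO libraries, whereas KO RA held both the highest values and an undetected one, in replicate 3. On all libraries its KO RA value exceeded KO NO by 3.21 (SE 1.25) on the log2 scale without a call (edgeR adjusted p = 0.15), and without KO RA replicate 3 by 3.74 (SE 1.03) with one (edgeR adjusted p = 0.0331). Neurog1 too passed the filter only through RA libraries. With no filter these differences were 3.18 (SE 1.27, edgeR adjusted p = 0.241) and 3.75 (SE 1.05, edgeR adjusted p = 0.0427). Neurog1 shares chromosome 13 with Faf2. In KO NO against WT NO the median log2 difference of 648 tested genes of that chromosome was -0.36, against -0.02 for all genes, beside -0.23 (SE 1.27) for Neurog1, and the part of that shift in the value of Neurog1 was not tested.

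Neurod4, a bHLH factor that acts after the neurogenins in newly formed neurons, was not detected in any KO NO library and in 1 of 3 WT NO libraries reached 0.0132 CPM. In WT RA it was at 0.0524, 0.191 and 0.356 CPM, and in KO RA at 0.809, 0.941 and 0.554 CPM. All 3 KO RA libraries were above all 3 WT RA libraries, and those were above all NO libraries. Without TMM factors KO RA held 0.801 ± 0.508 CPM and WT RA 0.185 ± 0.136 CPM, so the place of KO RA replicate 3 leans on its factor. The rounded count of Neurod4 was 0 in both NO groups. Against a floor of 3 deposited counts over KO NO, the mean of Neurod4 in KO RA was 26.6-fold higher (30.3-fold without KO RA replicate 3). Against the same floor over WT NO, its mean in WT RA was 5.87-fold higher. These ratios leave out the spread between RA libraries, and 1 fragment of Neurod4 was worth about 1.29 deposited units. They are therefore not lower bounds of the fold change. Neurod4 did not pass the filter on 12 libraries. Without KO RA replicate 3 it passed only through its level in KO RA, so no test of it is given.

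Neurod1, which promotes neuronal maturation and also serves endocrine cells, stayed lower. Its level was 0.113, 0.1 and 0.0655 CPM in WT NO, 0.26, 0.142 and 0.487 CPM in WT RA, 0.0322, 0.0156 and 0.0476 CPM in KO NO, and 0.542, 0.151 and 0 CPM in KO RA. WT RA was above WT NO in all 3 libraries, and the KO NO libraries were below those of WT NO. No comparison of Neurod1 was called in the fit without KO RA replicate 3, the nearest being KO RA against KO NO at 2.97 (SE 1.04, edgeR adjusted p = 0.0782). Neurod1 passed the filter of that fit only through RA libraries, so this test leans on the filter. With no filter the difference was 2.98 (SE 1.17, edgeR adjusted p = 0.159).

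The summed level of Neurog1, Neurog2, Neurod1 and Neurod4 was 0.1 to 0.439 CPM in the NO libraries, 1.07 to 1.88 CPM in WT RA and 3.68, 4.25 and 0.944 CPM in KO RA. KO RA replicate 3 was thus below WT RA in this sum, and the other 2 KO RA libraries were above it. In the same libraries the summed Hes1, Hes3, Hes5 and Hes6 level was 28.6 to 48.5 CPM outside KO RA replicate 3 and 17.8 CPM in it. The Hes repressors exceeded the proneural factors in all 12 libraries.

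Insm1, a zinc-finger factor that drives progenitors of neurons and of endocrine cells out of the proliferating state, was the 1 member called in every alternative computed for KO RA against KO NO. Its level was 3.55, 5.56 and 2.81 CPM in WT NO, 5.11, 10.2 and 9.96 CPM in WT RA, 2.18, 1.13 and 2.12 CPM in KO NO and 16.6, 17.4 and 9.28 CPM in KO RA. On these levels KO NO lay below WT NO in every library, and KO RA lay above both NO groups in every library. WT RA overlapped WT NO through its replicate 1 and KO RA through KO RA replicate 3. Without TMM factors KO RA held 15.4 ± 10.1 CPM, and a mean of 21.2 CPM without replicate 3, beside 4.34 ± 1.42 CPM in WT NO. The place of KO RA replicate 3 above WT NO therefore leans on its TMM factor. KO RA exceeded KO NO by 3.00 on the log2 scale (SE 0.42, edgeR adjusted p = 0.00396). Over those 22 alternatives the call came with fold changes of 2.74 to 3.26 and adjusted p of 1.12e-11 to 0.0343 (DESeq2, edgeR and limma), and without KO RA replicate 3 the change was 3.22 (SE 0.38, edgeR adjusted p = 0.000803).

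The WT response of Insm1 was smaller, at 1.09 (SE 0.40, edgeR adjusted p = 0.279), and 1.09 (SE 0.34, edgeR adjusted p = 0.0656) without KO RA replicate 3. The difference between the 2 responses, tested as the interaction of genotype and induction, was 1.91 (SE 0.56) on the log2 scale and not called by edgeR (edgeR adjusted p = 0.389). In that test edgeR called 0 of 16502 genes in either direction (0%), while 913 genes (5.53%) were higher and 510 (3.09%) lower before adjustment, and Insm1 was the 1 member among them. DESeq2 called the interaction of Insm1 at 1.96 (DESeq2 adjusted p = 0.0389), where 1.37% of all genes were called higher, and limma-voom at 2.40 (limma adjusted p = 0.0133), where 3.56% were, while edgeR without KO RA replicate 3 gave 2.13 (SE 0.51, edgeR adjusted p = 0.0682). Neither genotype comparison at a fixed treatment was called in edgeR, with -1.13 (SE 0.40, edgeR adjusted p = 0.258) for KO NO against WT NO and 0.78 (SE 0.39, edgeR adjusted p = 0.321) for KO RA against WT RA. Without KO RA replicate 3 they were -1.12 (SE 0.35, edgeR adjusted p = 0.074) and 1.01 (SE 0.37, edgeR adjusted p = 0.111). The 10 listed markers of neuroendocrine cells, the other cell type that uses Insm1, moved with induction as well: they summed to 3.37 to 4.79 CPM in WT NO, 4.67 to 5.999 CPM in KO NO, 8.03 to 12.2 CPM in WT RA and 9.69 to 12.1 CPM in KO RA, without overlap between NO and RA. Scg2, Scg3 and Syp led them in both RA groups, and the hormone genes Ins1, Ins2 and Gcg were at 0 there. The part of such cells in the values of Insm1 was not tested.

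Hes1, the main effector of Notch in progenitors, had the highest mean of the 9 in each group. It was at 22.9, 24.3 and 22.7 CPM in WT NO, 24.1, 26.3 and 21.3 CPM in WT RA, 21.3, 27.4 and 22.4 CPM in KO NO, and 30.3, 21.0 and 8.33 CPM in KO RA. The 4 groups overlapped, and the 1 value outside 20 to 31 CPM was that of KO RA replicate 3. Differences between groups were -0.26 to 0.04 on the log2 scale over all libraries, and 0.03 to 0.10 without KO RA replicate 3. The 95% interval of the WT response to RA was -0.74 to 0.82 on 12 libraries and -0.30 to 0.39 without KO RA replicate 3. For KO NO against WT NO it was -0.75 to 0.80, and -0.31 to 0.38 without that library. The intervals with KO RA reached lower: KO RA against KO NO had -1.03 to 0.53 and KO RA against WT RA -1.04 to 0.52, and without replicate 3 they were -0.28 to 0.49 and -0.29 to 0.48. No change of Hes1 was detectable within these limits, which still allow changes of that size. The Hes1 window shown above held the most motif matches of the 9, with paired RBPJ letters beside its own class of repressor sites.

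Hes6, which binds Hes1 and relieves its repression and is itself turned on in cells that leave the progenitor state, followed both genotype and induction. Its level was 10.8, 11.9 and 10.4 CPM in WT NO and 6.87, 7.56 and 6.38 CPM in KO NO. Induced libraries held 24.1, 16.6 and 14.8 CPM in WT and 10.5, 11.1 and 9.37 CPM in KO. No KO library reached the WT libraries of the same treatment, and no NO library reached the RA libraries of its genotype. KO NO against WT NO was -0.67 (SE 0.22, edgeR adjusted p = 0.216), KO RA against WT RA -0.84 (SE 0.22, edgeR adjusted p = 0.0953), WT RA against WT NO 0.75 (SE 0.22, edgeR adjusted p = 0.192) and KO RA against KO NO 0.57 (SE 0.22, edgeR adjusted p = 0.147), so no comparison of Hes6 was called on 12 libraries. Without KO RA replicate 3 the values were nearly the same and 3 of the 4 were called: -0.66 (edgeR adjusted p = 0.0493), -0.78 (edgeR adjusted p = 0.0397) and 0.75 (edgeR adjusted p = 0.0275), with KO RA against KO NO at 0.63 (edgeR adjusted p = 0.0578). DESeq2 on all 12 libraries called all 4, at adjusted p of 0.0354, 0.00903, 0.0136 and 0.0264. The response of Hes6 to RA differed between genotypes by -0.17 (SE 0.31), with a 95% interval of -0.86 to 0.52, and by -0.12 (SE 0.27) without KO RA replicate 3.

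Ratios within a library do not depend on its scaling. The ratio of Hes6 to Hes1 was 0.473, 0.489 and 0.458 in WT NO and 0.322, 0.276 and 0.285 in KO NO, and in WT RA it was higher, at 1.00, 0.63 and 0.695. In KO RA it was 0.347, 0.529 and 1.12, a spread that covers both WT groups and whose top value came from replicate 3. The ratio of Insm1 to Hes6 separated KO RA from the rest: it was 1.58, 1.56 and 0.991 there, 0.15 to 0.332 in KO NO, 0.271 to 0.468 in WT NO and 0.212 to 0.672 in WT RA. KO RA replicate 3, which had the lowest level of the 3 KO RA libraries for each of the 9 members, was also above the other 3 groups in this ratio. Insm1 exceeded Hes6 in 2 of 12 libraries, both of KO RA.

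**Figure D3:**
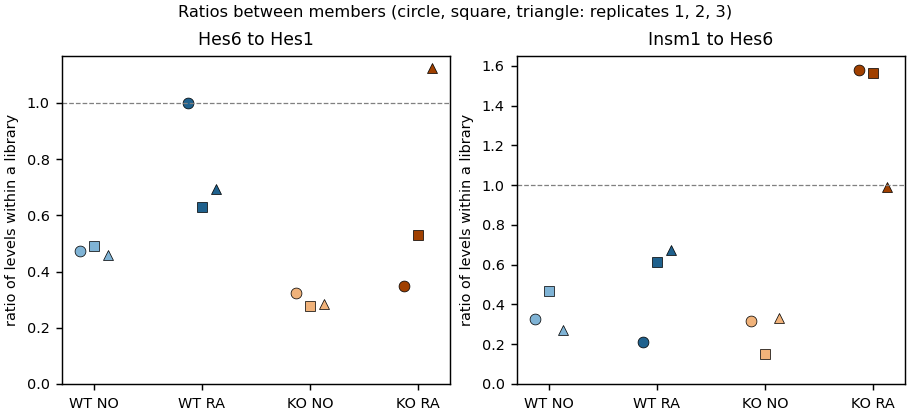
The panels plot the ratio of the levels of Hes6 to Hes1 and of Insm1 to Hes6 within each library (vertical axes, no unit) for the 4 groups, with the replicate number as the point shape and a dashed line at 1. The 3 KO RA libraries lie at 0.991 to 1.58 for Insm1 to Hes6, above all others, and the 3 KO NO libraries lie lowest for Hes6 to Hes1, at 0.276 to 0.322.

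Hes5, with Hes1 the other main Notch target in neural progenitors, and Hes3, a factor of the early neuroepithelium and of the border between midbrain and hindbrain, were near the limit of detection. For Hes5 the levels were 0.134, 0.413 and 0.23 CPM in WT NO, 0, 0.111 and 1.41 CPM in WT RA, 0.113, 0.11 and 0.262 CPM in KO NO, and 0.306, 0.399 and 0.147 CPM in KO RA. Its highest and its lowest value were both in WT RA, and no comparison was called on 12 or on 11 libraries. For Hes3 they were 0.497, 0.794 and 0.279 CPM in WT NO, 0.269, 0.22 and 0.413 CPM in WT RA, 0.305, 0.181 and 0.148 CPM in KO NO, and 0.843, 0.0293 and 0 CPM in KO RA. KO RA spanned the whole range of Hes3, and no comparison of it was called either. Hes5, whose window shown above also holds 2 RBPJ matches, corresponded to at most 3.32 fragments in 11 of the 12 libraries, so the 2 Notch targets of the set differed in level far beyond their spread.

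The genes around the factors were taken as 6 lists, counted here against the share called among all genes in the same comparison. Among 33 tested textbook targets of proneural factors, 13 were higher and 0 lower in KO RA against KO NO, with a median log2 fold change of 1.09 where all genes had 0.11, and 1 was higher in WT RA against WT NO (median 0.68, all genes -0.01). The percentages for all genes were 3.89% and 0.321%. Leaving out KO RA replicate 3 made these counts 21 and 11, where 8.48% and 5.65% of all genes were called higher. Nhlh1 and Nhlh2 are also in the list of other bHLH factors below, and Dll1, Dll3 and Mfng in that of Notch ligands. Of the 13 targets, Nhlh1, Nhlh2, St18 and Myt1 had means of at most 0.0434 CPM in both NO groups. Ebf2 and Scrt1 had means of at most 0.333 CPM there. At least these genes passed the filter only with RA libraries, so the count of targets leans on it. Gadd45g, which slows the cell cycle in new neuronal precursors, had the smallest p of the list, with means of 0.988, 3.37, 0.474 and 7.15 CPM in WT NO, WT RA, KO NO and KO RA, and a change of 3.92 (SE 0.40, edgeR adjusted p = 0.000537) in KO RA against KO NO, or 3.92 (edgeR adjusted p = 0.00035) without KO RA replicate 3. Ebf2, a factor of neuronal differentiation, changed by 6.29 in that comparison (SE 1.00), from 0.0181 to 2.61 CPM. The neuronal zinc-finger factor Myt1 went from 0.00339 to 0.991 CPM. Without KO RA replicate 3 the changes were 6.77 for Ebf2 and 7.57 for Myt1. No p-value is given for either, since both passed the filter only with RA libraries. Tubb3, the tubulin of early neurons, picked after its values were seen, was called too, by 1.26 (SE 0.27, edgeR adjusted p = 0.0243), and by 1.43 (SE 0.23, edgeR adjusted p = 0.00321) without KO RA replicate 3.

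Of 18 other bHLH factors of neurogenesis, 8 were tested, and 4 were higher in KO RA against KO NO (Nhlh2, Atoh8, Nhlh1 and Olig3), with 1 (Nhlh2) higher in WT RA against WT NO. The shares of all genes called higher were 3.89% and 0.321%. These 4 had means of 0.00564 to 0.274 CPM in the NO groups and passed the filter only with RA libraries. Their calls lean on the filter, so no p-value is given for them. Nhlh2, a factor of postmitotic neurons, went from 0.00564 CPM in WT NO to 2.00 ± 0.53 CPM in WT RA, and from 0.0108 to 2.84 ± 2.68 CPM in KO. Atoh8 changed by 3.04 (SE 0.58) and Olig3, a factor of dorsal progenitors, by 4.56 (SE 1.08) in KO RA against KO NO. With KO RA replicate 3 left out these changes were 3.32 and 5.07, and the counts were 4 higher in KO, and 4 higher with 1 lower in WT. Of all genes, 8.48% were then higher in KO, and 5.65% higher with 5.13% lower in WT. The lower gene was Tal1, at -2.95 in WT (edgeR adjusted p = 0.0495) but 2.09 in KO (edgeR adjusted p = 0.107), and Ascl2 and Atoh7 had uncalled values of -0.91 and -0.94 in KO on 12 libraries.

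The Notch pathway came in 2 lists. Of 24 receptors and signal transducers, 2 were higher in KO RA against KO NO, the receptor Notch1 by 2.28 (SE 0.47, edgeR adjusted p = 0.0202) and the modulator Dtx4 by 1.40 (SE 0.35, edgeR adjusted p = 0.0439), and the list had a median of -0.10. Before adjustment, edgeR had 4 higher and 2 lower, where 15.8% of all genes were higher and 9.42% lower. After adjustment 3.89% of all genes were higher. Once KO RA replicate 3 was dropped the count was 6 higher (Notch1, Notch3, Maml2, Numbl, Dtx4 and Nrarp) and 0 lower, where 8.48% of all genes were higher, with a list median of 0.20, Notch1 at 2.33 (edgeR adjusted p = 0.0111) and Dtx4 at 1.73 (edgeR adjusted p = 0.000454). In WT RA against WT NO edgeR called 0 of them, with 1 higher before adjustment and 0 called by DESeq2, where 6.76% and 3.27% of all genes were higher. The fit without KO RA replicate 3 called 1 higher and 1 lower, beside 5.65% and 5.13% of all genes. Among 9 tested ligands and fringe enzymes, the ligand Jag1 rose in KO RA against KO NO by 1.26 (SE 0.24, edgeR adjusted p = 0.0133). On the 11 other libraries Jag1 was at 1.39 (edgeR adjusted p = 0.00169), and Dll1, the ligand that proneural factors turn on and likewise picked after its values were seen, was called as well, by 1.15 (SE 0.25, edgeR adjusted p = 0.0118) in KO and by 0.85 (SE 0.23, edgeR adjusted p = 0.0403) in WT. Of 10 other Hes and Hey repressors and corepressors, edgeR called 0 in any comparison on 12 libraries, while in each comparison of RA with NO 2 were higher before adjustment and DESeq2 called 2 higher. Before adjustment 6.76% of all genes were higher in WT and 15.8% in KO, and DESeq2 called 3.27% and 10.5% higher. Once KO RA replicate 3 was left out, 2 were higher in WT, Bhlhe40 by 2.51 (SE 0.28, edgeR adjusted p = 0.00136) and Bhlhe41 by 3.21 (SE 0.57, edgeR adjusted p = 0.00887), and 1 lower, the corepressor Tle3 by -0.56 (edgeR adjusted p = 0.0455). In KO 2 were then higher, Bhlhe40 by 2.02 (SE 0.29, edgeR adjusted p = 0.0017) and Tle5 by 0.70 (SE 0.11, edgeR adjusted p = 0.00353).

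E proteins are the partners of the proneural factors, and Id proteins take these partners away. Among these 7 genes, the E protein Tcf12 was higher in KO RA than in KO NO by 0.98 (SE 0.20, edgeR adjusted p = 0.0192) and higher in KO RA than in WT RA by 1.02 (SE 0.20, edgeR adjusted p = 0.0388), at means of 68.0, 79.8, 81.6 and 161 CPM in WT NO, WT RA, KO NO and KO RA. On the 11 other libraries these were 0.94 (edgeR adjusted p = 0.00337) and 0.98 (edgeR adjusted p = 0.00559). Id2 was higher in KO RA than in KO NO by 2.20 (SE 0.52, edgeR adjusted p = 0.0349), a value that fell to 1.31 (SE 0.33, edgeR adjusted p = 0.0231) without KO RA replicate 3. On 12 libraries Tcf12 was the 1 gene of the 6 lists called between KO RA and WT RA. Without replicate 3 that comparison had 6 of the 24 Notch receptors and transducers higher and 1 lower, and 3 of the 33 proneural targets higher and 1 lower, where 4.42% of all genes were higher and 5.44% lower.

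Without induction, edgeR called 0 genes of the 6 lists between KO and WT on 12 libraries. Of the 24 Notch receptors and transducers, 3 were then higher and 3 lower before adjustment, and DESeq2 called 2 higher and 2 lower, where 3.31% and 3.19% of all genes were. The fit without KO RA replicate 3 called 4 of them higher and 3 lower, where 4.43% and 4.35% of all genes were. Among these, the receptor Notch3 differed between KO NO and WT NO by -1.28 (SE 0.20, edgeR adjusted p = 0.00511), and the Notch inhibitor Numb was higher by 0.95 (SE 0.14, edgeR adjusted p = 0.00465). Of the 33 proneural targets, 2 were higher and 6 lower before adjustment, where 5.81% and 6.37% of all genes were, and DESeq2 called 1 higher and 3 lower. On the 11 other libraries edgeR called 1 higher and 2 lower, and of the other 4 lists 1 ligand or fringe enzyme and 1 E or Id protein higher.

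**Figure D4:**
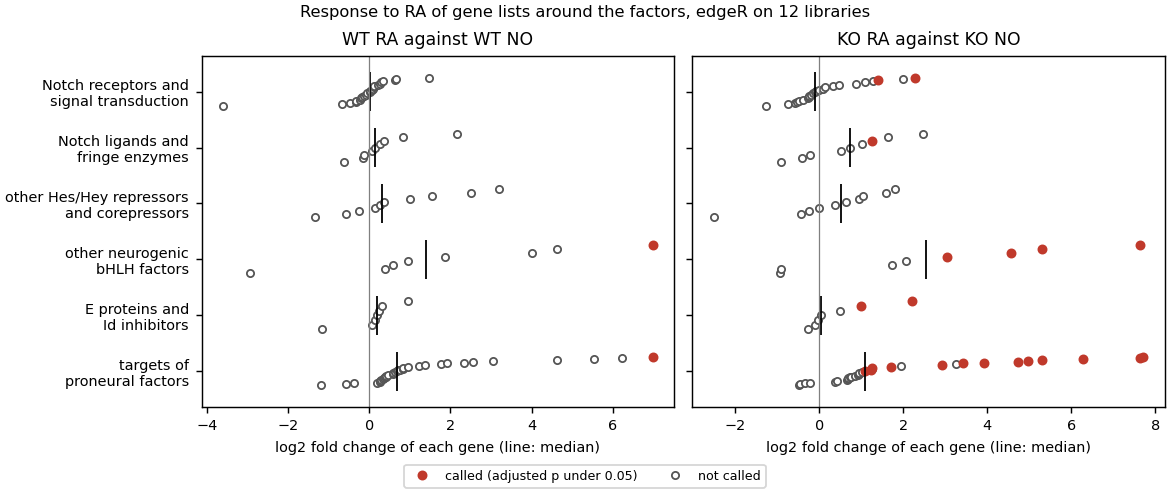
The panels plot the log2 fold change of each tested gene of the 6 lists (horizontal axis), for WT RA against WT NO on the left and KO RA against KO NO on the right over all 12 libraries, with called genes filled and a line at the median of each list. The targets of proneural factors have 13 filled points on the right and 1 on the left, the other neurogenic bHLH factors 4 and 1, and the Notch receptors and transducers 2 and 0.

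Across the 12 libraries, members moved together to different degrees, which is given as a description since all values share the same libraries and scaling. The Pearson r of log2 CPM was 0.79 between Neurog1 and Neurog2, 0.83 between Neurog2 and Insm1 and 0.59 between Neurog1 and Insm1. On the other 11 libraries they were 0.94, 0.83 and 0.75. With Hes1, the r of Neurog1, Neurog2 and Insm1 was 0.43, -0.07 and -0.16, and without KO RA replicate 3 it was 0.15, 0.20 and 0.11. Hes6 had r of 0.50 with Insm1 and 0.16 with Hes1. Among all tested genes, Bnc2 (0.98), Il4ra (0.97) and Olfml3 (0.97) were most like Insm1, Slc44a5 (0.96), Gm44645 (0.96) and Pank3 (0.96) most like Neurog2, and Cdkn1b (0.93), the inhibitor of cell cycle kinases, most like Hes6. Hes1 was most like Sp1 (0.95), but at 0.51 without KO RA replicate 3.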

How the data were processed

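The authors aligned and quantified reads with the nf-core/rnaseq pipeline (STAR and Salmon) against the mouse genome GRCm39 and deposited estimated counts scaled from TPM, 1 column per library. These estimated counts are not whole, so they were rounded. Since length had been divided out, 1 fragment of Hes5 was worth about 3.43 deposited units and 1 of Neurod4 about 1.29. Among the 3851 genes detected in a single library, longer exonic length went with lower values (Spearman rho -0.68, across genes), so the tests treat as counts what are scaled counts, and their p-values are approximate.

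Groups came from the sample labels. edgeR 4.0.16 in R 4.3.3 (filterByExpr, TMM factors, robust quasi-likelihood fit, 1 coefficient per group over 12 libraries) gave the log2 fold changes, and SEs are |log2 fold change| over the square root of F. Alternatives were DESeq2 1.42.0, limma 3.58.1 (voom with quality weights), other scaling and filters, approximate fragments, and each library left out. The test was tried on simulated counts first. The 9 genes were given, and the lists and tests were chosen with earlier results of these data known; Benjamini-Hochberg adjustment ran over all tested genes. Replicates were passages of 1 line per genotype, so p-values measure the spread between passages. The mean over 3 libraries is followed by its SD. The filter kept genes that reached a low cutoff in at least as many libraries, of any group, as the smallest group held. A gene high in 1 group alone could therefore pass.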

Additional observations from a re-analysis of the deposited data

How the results depend on the processing

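Of the 2 members called higher in KO RA against KO NO, Insm1 was called under all 22 alternatives. Neurog2 was called in 13 of the 19 in which it was tested. That count of members was 1 with the replicate block, with edgeR on only the groups compared and with length-scaled counts. In the last 2 of these settings Neurog2 did not pass the filter, and only Insm1, Hes1 and Hes6 were tested. The count was 4 with limma-voom and, in fits chosen after seeing the data, without KO RA replicate 3 and no filter or length-scaled counts. Leaving out 1 library at a time gave 1 to 4, and the counts of 4 without KO RA replicate 3 include Neurod4. With the replicate block, Neurog2 was at 4.27 (edgeR adjusted p = 0.0651). The replicate numbers share only a number: same-numbered libraries correlated in their deviations by -0.17 to 0.04, and the block changed no other call of a member. In KO NO against WT NO the count called lower was 1 with DESeq2 on all libraries or on the groups compared and 2 with limma-voom, and 0 to 1 with 1 library left out. In KO RA against WT RA, limma-voom called 2 higher, and 1 was called lower by DESeq2 on all libraries, by limma-voom and without KO RA replicate 3 with length-scaled counts (0 to 1 with 1 library left out). In WT RA against WT NO the count higher was 1 with DESeq2 on all libraries and without KO RA replicate 3 and no filter, 2 with DESeq2 on the groups compared, limma-voom and without KO RA replicate 3 with length-scaled counts, and 0 to 1 with 1 library left out. The interaction had 1 member called higher, Insm1, by DESeq2 in both forms and by limma-voom. Without TMM factors the mean of Hes1 was 25.7 CPM in WT NO and 27.2 CPM in KO NO, and that of Hes6 12.1 and 7.98 CPM.

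Of the log2 fold changes of members, 635 values kept their sign and side of the threshold, 30 passed it newly, 6 lost it and 41 changed sign, all of the latter uncalled. With limma-voom, Neurog1 was at 0.23 in KO NO against WT NO, Hes1 at 0.060 in KO RA against WT RA, -0.0063 in WT RA against WT NO, 0.045 in KO RA against KO NO and 0.052 in the interaction, Hes5 at 1.18, -0.52 and, in the interaction, 1.63, and Hes3 at -0.31 in KO RA against KO NO. With the replicate block Hes5 was at 0.10 in KO RA against WT RA and 0.87 in the interaction. Without KO RA replicate 3 and no filter, Hes1 was at 0.12, 0.11 and 0.077 in KO RA against WT RA, KO RA against KO NO and the interaction, Hes3 at 0.46 in the first and Hes5 at 0.18 in the last, and with length-scaled counts Hes1 was at 0.093, 0.13 and 0.067. Leaving out 1 library gave, in KO NO against WT NO, -0.78 to 1.30 for Neurog1, -0.45 to 0.63 for Neurog2 and -0.088 to 0.089 for Hes1; in KO RA against WT RA, -0.67 to 0.094 for Hes1, -3.52 to 0.50 for Hes3 and -1.41 to 2.45 for Hes5; in WT RA against WT NO, -0.037 to 0.11 for Hes1 and -2.34 to 1.52 for Hes5; in KO RA against KO NO, -0.66 to 0.10 for Hes1 and -2.88 to 1.14 for Hes3; and in the interaction, -0.47 to 1.62 for Neurog1, -0.70 to 0.060 for Hes1, -2.21 to 1.81 for Hes3, -0.73 to 3.13 for Hes5 and -0.32 to 0.060 for Hes6. The cause was not tested. Hes3, Hes5, Neurod1 and Neurog1 rest on few fragments, and none of them was called between genotypes in these fits.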
